A study of Mus musculus with 7 samples.

Results

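The 49 genes described here encode neural cell adhesion molecules of the surface: contactins and their partners, neurexins and neuroligins, immunoglobulin-type cell adhesion molecules, leucine-rich repeat proteins and receptor protein tyrosine phosphatases. They were chosen by gene symbol from the 49315 genes in the deposited counts, and each symbol matched 1 gene. The libraries came from bulk RNA of oligodendroglia of mouse brain. The study set 3 control libraries, whose genotype is Sox9-wt, against 4 Sox9-tg libraries, whose cells overexpress the transcription factor Sox9. Its title places these cells among NG2 glia, the dividing precursors of oligodendrocytes, soon after birth, and asks which genes respond to Sox9 there. No age in days, driver of the transgene, strain or method of isolating the cells could be taken from the labels, and they name no other allele or treatment. The libraries are called biological replicates, but no label ties them to separate animals. The p-values therefore reflect only how far these libraries differ, and some of that spread may be technical.

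Adhesion molecules of these families span the gap between cells. Neurexins of the presynaptic membrane bind neuroligins and LRRTM proteins across the synapse. LAR-type phosphatases bind SLITRK proteins, IL1RAPL1 and a netrin-G ligand, and MDGA proteins bind neuroligins on the same membrane and keep neurexin away. Contactins hang on the outer membrane by a lipid anchor and work with partners such as contactin-associated proteins, neurofascin and L1-type proteins, and several of these build the axon-glia contacts at nodes of Ranvier. NG2 glia receive synapses from neurons, and oligodendrocytes form the glial side of the paranodal contact, so glia use many of the genes first described in neurons.

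Each library held between 15768472 and 30507326 gene counts, and levels are given in CPM, a gene's counts relative to the scaled library total, in the order of replicates 1 to 3 for control and 1 to 4 for Sox9-tg. Sox9 itself lay between 239 and 352 CPM in control and between 2203 and 3592 CPM in Sox9-tg libraries, so all 7 libraries matched their labels. The 5 NG2 glia markers Pdgfra, Cspg4, Olig1, Olig2 and Sox10 summed to between 1805 and 2168 CPM in control and between 4518 and 5945 CPM in Sox9-tg libraries. The 7 oligodendrocyte markers summed to between 143 and 281 CPM and between 766 and 4675 CPM, with Mobp near 0 in both groups. The 10 neuron markers summed to between 3153 and 5041 CPM in control and between 2024 and 3835 CPM in Sox9-tg libraries. These sums overlap, but 9 of the 10 log2 fold changes were negative, and Rbfox3 (-1.47, adjusted p = 0.000973), Stmn2 (-1.08, 0.00521) and Syt1 (-0.75, 0.00883) fell, with no overlap between groups. The 6 astrocyte markers summed to between 1979 and 3557 CPM and between 1325 and 1889.5 CPM. Microglial, endothelial and ependymal markers were highest within each group in the libraries numbered 2 (489 and 203 CPM for 5 microglial markers, against at most 132 CPM elsewhere). The 4 Schwann cell and neural crest markers summed to between 11.5 and 14.0 CPM in control and between 32.5 and 79.4 CPM in Sox9-tg libraries. Of these, Foxd3 rose from at most 1.19 CPM to between 22.8 and 69.8 CPM (log2 fold change 6.35, adjusted p = 0.000832), Ngfr fell (-1.20, 0.0419) and Prx did not pass. No listed marker was at 0 in every library. In bulk RNA, fewer cells of a type and less RNA per cell cannot be told apart.

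Most of the adhesion genes were higher with Sox9. All 49 passed the filter on low counts, 26 rose, 7 fell and 16 did not pass the test, with log2 fold changes (Sox9-tg minus control) between -2.06 and 2.82. Over all 16616 genes tested, 13.5% were called, 7.69% higher and 5.86% lower, against 67.3% of the adhesion genes, 53.1% higher and 14.3% lower. The adhesion genes were chosen with earlier results of these data known, so this contrast is a description. The median log2 fold change of the 49 genes was 0.66, and that of all genes tested was -0.0119. Control and Sox9-tg libraries did not overlap for 34 of the 49 genes (69.4%), where 24.5% of all genes tested had no overlap. A call here is an adjusted p under 0.05 in the quasi-likelihood test of edgeR, with p-values adjusted by the Benjamini-Hochberg method over all genes tested. The number of genes that rose was 19 without control replicate 3. The number that fell depended more on single libraries and was 4 when control replicate 1 or Sox9-tg replicate 3 was left out and 3 when control replicate 3 was. With both libraries numbered 2 left out, an alternative chosen after seeing the data, 25 rose and 6 fell.

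**Figure D1:**
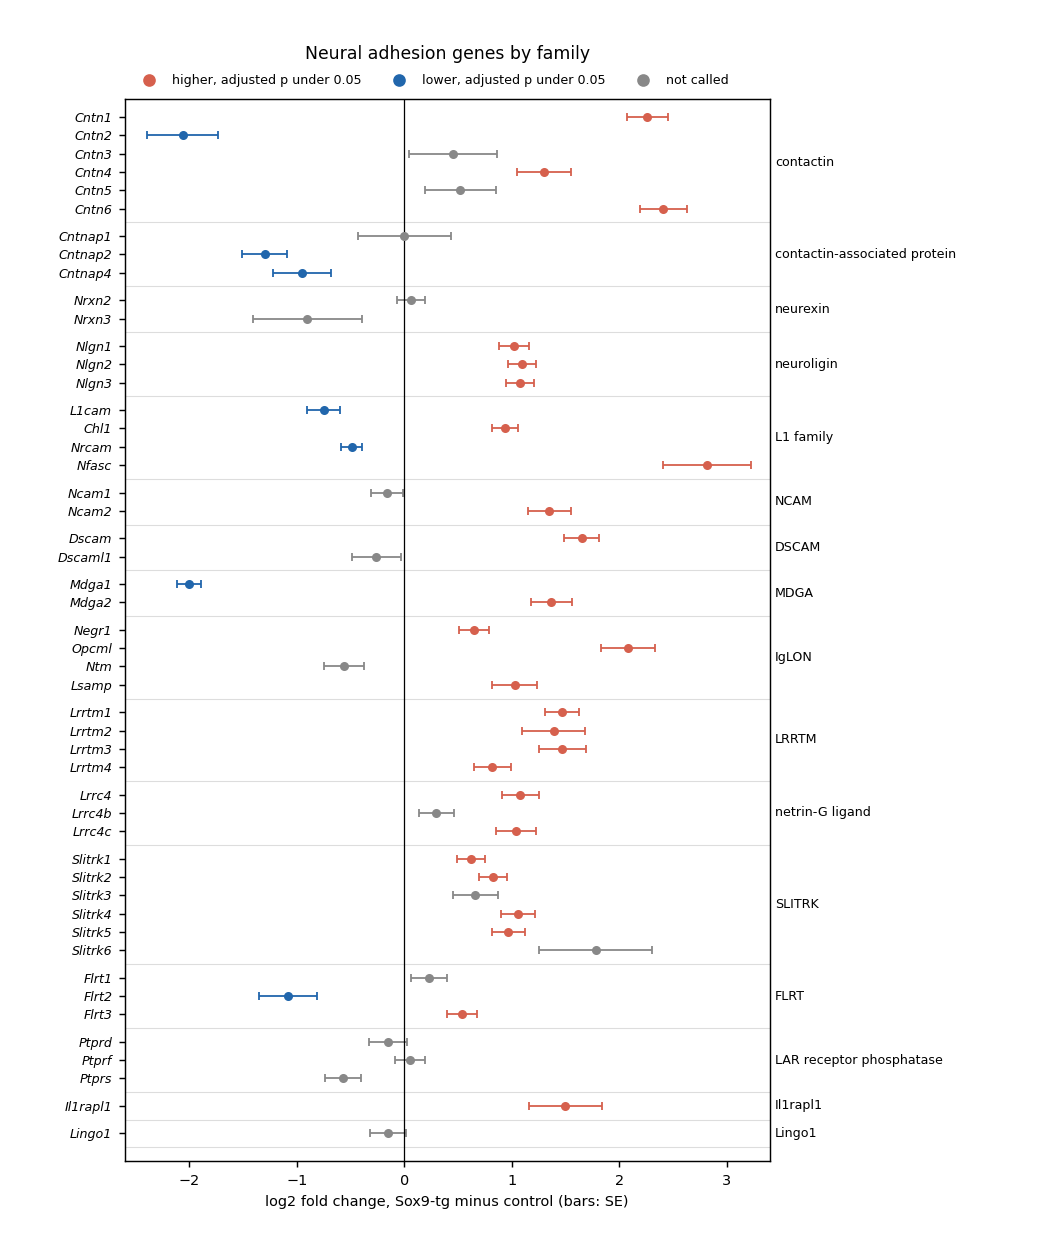
Log2 fold change of each of the 49 adhesion genes, Sox9-tg minus control, with its standard error as a bar, grouped by family; colours mark genes higher, lower or not called at an adjusted p under 0.05. All 4 LRRTM and all 3 neuroligin genes lie to the right of 0, while the contactin, L1, MDGA and FLRT families hold genes on both sides.

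RefSeq promoters (250 bases before to 50 after a start site, GRCm38.p6) were at hand for 39 of the 49 genes, 55 promoters in all. They are shown for 5 genes on which the results below turn: Cntn1, Nlgn1 and Chl1, which rose and have a promoter with a SOX-type core, and the oppositely changed pair Mdga1 and Mdga2, whose promoters hold none. They were picked to show both kinds, not as evidence that a core goes with a rise. SOX proteins bind short cores of the kind AACAAT or ACAAAG. Both were searched on both strands, as AACAAT or ATTGTT and as ACAAAG or CTTTGT, and matches stand in capitals. Each sequence runs 5′ to 3′ on the gene's strand, the last 50 bases lying from the start site onward.
Cntn1, chr15:92127878-92128177, plus strand: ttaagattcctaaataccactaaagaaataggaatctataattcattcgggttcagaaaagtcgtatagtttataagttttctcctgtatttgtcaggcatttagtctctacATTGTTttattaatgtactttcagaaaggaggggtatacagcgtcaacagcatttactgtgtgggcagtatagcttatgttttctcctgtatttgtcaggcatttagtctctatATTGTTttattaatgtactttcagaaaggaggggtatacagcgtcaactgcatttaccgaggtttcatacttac
Nlgn1, chr3:26153937-26154236, minus strand: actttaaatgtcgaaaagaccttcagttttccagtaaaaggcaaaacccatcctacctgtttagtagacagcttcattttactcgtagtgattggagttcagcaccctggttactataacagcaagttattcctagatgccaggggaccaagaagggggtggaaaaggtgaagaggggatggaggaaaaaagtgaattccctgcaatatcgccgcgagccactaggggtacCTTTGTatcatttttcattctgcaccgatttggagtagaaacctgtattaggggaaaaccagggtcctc
Chl1, chr6:103510626-103510925, plus strand: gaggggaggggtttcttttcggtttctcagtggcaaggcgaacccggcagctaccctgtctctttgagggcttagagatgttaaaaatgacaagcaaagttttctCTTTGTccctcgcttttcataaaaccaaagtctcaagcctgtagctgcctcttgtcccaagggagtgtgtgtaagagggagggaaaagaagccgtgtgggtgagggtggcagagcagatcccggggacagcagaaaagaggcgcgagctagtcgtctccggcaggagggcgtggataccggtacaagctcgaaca
Mdga1, chr17:29887833-29888132, minus strand: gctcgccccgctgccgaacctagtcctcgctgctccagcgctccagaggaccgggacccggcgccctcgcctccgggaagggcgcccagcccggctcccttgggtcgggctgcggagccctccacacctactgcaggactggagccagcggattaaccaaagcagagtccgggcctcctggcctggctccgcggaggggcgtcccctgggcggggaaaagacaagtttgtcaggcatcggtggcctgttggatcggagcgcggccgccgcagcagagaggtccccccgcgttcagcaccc
Mdga2, chr12:67222500-67222799, minus strand: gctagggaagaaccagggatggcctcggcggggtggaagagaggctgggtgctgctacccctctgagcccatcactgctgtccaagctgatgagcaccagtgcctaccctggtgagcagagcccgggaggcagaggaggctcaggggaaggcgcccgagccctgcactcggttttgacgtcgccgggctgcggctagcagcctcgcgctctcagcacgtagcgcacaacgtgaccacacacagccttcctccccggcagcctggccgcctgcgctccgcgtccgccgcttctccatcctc
The Cntn1 start site shown is 1 of 3 that RefSeq gives, and its 2 matches begin 138 and 24 bases before the start. In Nlgn1, where it is 1 of 2 start sites, the match begins 19 bases and in Chl1 145 bases before it. The starts shown for Cntn1, Nlgn1 and Mdga1 lie well inside the GENCODE spans of these genes. AACAAT was found in 2 of the 55 promoters of adhesion genes and in 10.7% of all 32851 promoters of this length, and ACAAAG in 7 of 55 and in 18.7%. The longer form ACAATGG, which can overlap AACAAT, was found in 0 of 55 and in 3.66%. ACAAAG was in 4 of the 31 promoters of genes that rose (12.9%) and 1 of the 8 of genes that fell (12.5%). Of the 16 promoters of genes not called, 2 held it (12.5%). For AACAAT these counts were 1, 0 and 1. Such small counts cannot show whether the cores sort by direction. Flrt2, which fell, and Nrxn3 and Ntm, which were not called, also had one, and the other promoters of Cntn1 and Nlgn1 had none. A match is a description of the letters and not a site of binding.

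Among the contactins, lipid-anchored immunoglobulin proteins, expression moved toward Cntn1 and Cntn6 and away from Cntn2. Cntn1 (ENSMUSG00000055022, GRCm38 chromosome 15, 92051165 to 92341967, plus strand), the contactin of the paranodal contact and a ligand of Notch on oligodendrocyte precursors, stood at 128, 178 and 166 CPM in control libraries and at 589, 851, 793 and 791 CPM in Sox9-tg libraries. Each Sox9-tg library, the lowest being replicate 1, thus held more than 3 times the level of the highest control library (log2 fold change 2.26, SE 0.19, adjusted p = 0.000275). Cntn6, also called NB-3, rose from 4.7, 7.89 and 6.3 CPM to 25.3, 37.5, 34.7 and 37.1 CPM (2.41, SE 0.22, adjusted p = 0.000355). The scarce Cntn4 rose from 2.21, 3.76 and 2.78 CPM to 6.29, 7.02, 7.46 and 8.04 CPM (1.30, SE 0.25, adjusted p = 0.0104), a call lost without control replicate 3 (adjusted p = 0.0573). Cntn2, or TAG-1, an axonal contactin that also sits in glia beside the paranode, fell from 122, 56.4 and 74.8 CPM to 31.0, 12.5, 17.4 and 19.9 CPM (-2.06, SE 0.33, adjusted p = 0.00476). Control replicate 1 was highest by far within its group, and the highest Sox9-tg library, replicate 1, lay below the lowest control library. Cntn3 and Cntn5 stayed under 4 CPM in every library and did not pass.

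Contactin-associated proteins, the membrane-spanning partners of contactins, did not follow Cntn1. Cntnap2, or CASPR2, which clusters potassium channels beside the paranode together with TAG-1, fell from 31.4, 37.6 and 28.0 CPM to 8.86, 16.0, 12.6 and 15.2 CPM (-1.30, SE 0.21, adjusted p = 0.00454). Sox9-tg replicate 1 was lowest here although it was highest of its group in Cntn2. Cntnap4 fell from 6.79, 5.09 and 8.23 CPM to 4.14, 2.64, 2.96 and 4.09 CPM, close to the threshold (-0.95, SE 0.27, adjusted p = 0.0488). Its call was lost without control replicates 1 (adjusted p = 0.131) or 3 (0.223), without Sox9-tg replicates 2 (0.0984), 3 (0.146) or 4 (0.0898), and without the filter on low counts (0.0791). Cntnap1, the neuronal partner of contactin-1 at the paranode, lay between 0.929 and 2.53 CPM in all libraries, with a log2 fold change of 0.0014.

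The L1 family, 4 immunoglobulin proteins that bind ankyrins and guide axons, split evenly. Nfasc encodes neurofascin, whose glial form holds the oligodendrocyte side of the paranodal contact; counts per gene do not separate it from the neuronal form. It stood at 110.0, 97.0 and 102 CPM in control libraries and at 344, 1293, 672 and 607 CPM in Sox9-tg libraries (2.82, SE 0.41, adjusted p = 0.00299), the largest log2 fold change of the 49. No library of one group reached the other, but the Sox9-tg libraries differed from each other widely (coefficient of variation 55.1%, against 6.4% in control). Chl1, the close homologue of L1, rose from 102, 113 and 91.9 CPM to 189, 211, 180.4 and 200 CPM (0.94, SE 0.12, adjusted p = 0.00161), evenly across libraries. L1cam itself fell from 67.9, 53.2 and 58.6 CPM to 43.6, 30.6, 33.6 and 34.3 CPM (-0.75, SE 0.15, adjusted p = 0.0111), which was lost without control replicates 1 (adjusted p = 0.0557) or 3 (0.0517). Nrcam, a nodal protein, fell from 147, 141 and 128 CPM to 94.5, 98.5, 94.2 and 108 CPM (-0.49, SE 0.10, adjusted p = 0.0163). That smaller fall no longer passed when control replicate 1 (adjusted p = 0.0877), 2 (0.0544) or 3 (0.0599) or Sox9-tg replicate 3 (0.0717) was left out, nor without both libraries numbered 2 (0.07).

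The levels of Nfasc within the Sox9-tg group followed the same order as the summed oligodendrocyte markers, which were 766, 4675, 2799 and 2445 CPM in replicates 1 to 4. Lrrtm2 and Ncam2, described below, were also lowest in replicate 1 and highest in replicate 2. Of the 26 genes that rose, 18 were lowest in Sox9-tg replicate 1 and 11 highest in replicate 2, and 9 were both (Cntn1, Cntn6, Nfasc, Ncam2, Dscam, Opcml, Lsamp, Lrrtm2 and Lrrtm3). Of all 49 adhesion genes, 25 were lowest in Sox9-tg replicate 1 and 15 highest in replicate 2. Shares over all genes tested are not given here, so these counts do not set the adhesion genes apart. Among the 7 that fell, Cntn2, Cntnap4, L1cam and Flrt2 were highest in Sox9-tg replicate 1 and lowest in replicate 2, the order of the extremes of the neuron markers, which summed to 3835, 2024, 2626 and 2585 CPM in replicates 1 to 4 and to 5041, 3153 and 3977 CPM in control. Sox9-tg replicate 1 exceeded control replicate 2 in this sum. It did so in Dcx (1049 against 522 CPM), Map2 (1082 against 852), Elavl3 (571 against 473), Snap25 (54.4 against 44.8) and Syn1 (61.2 against 54.4). It lay lower in Rbfox3 (16.0 against 46.1 CPM), Stmn2 (205 against 292), Syt1 (25.2 against 37.0), Tubb3 (767 against 815) and Nefl (4.4 against 17.0). Between these libraries, Cntn2 was at 31.0 against 56.4 CPM, Flrt2 at 56.5 against 58.0 CPM and Nrxn3 at 232 against 123 CPM. The part of the marker levels in these results was not tested.

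**Figure D2:**
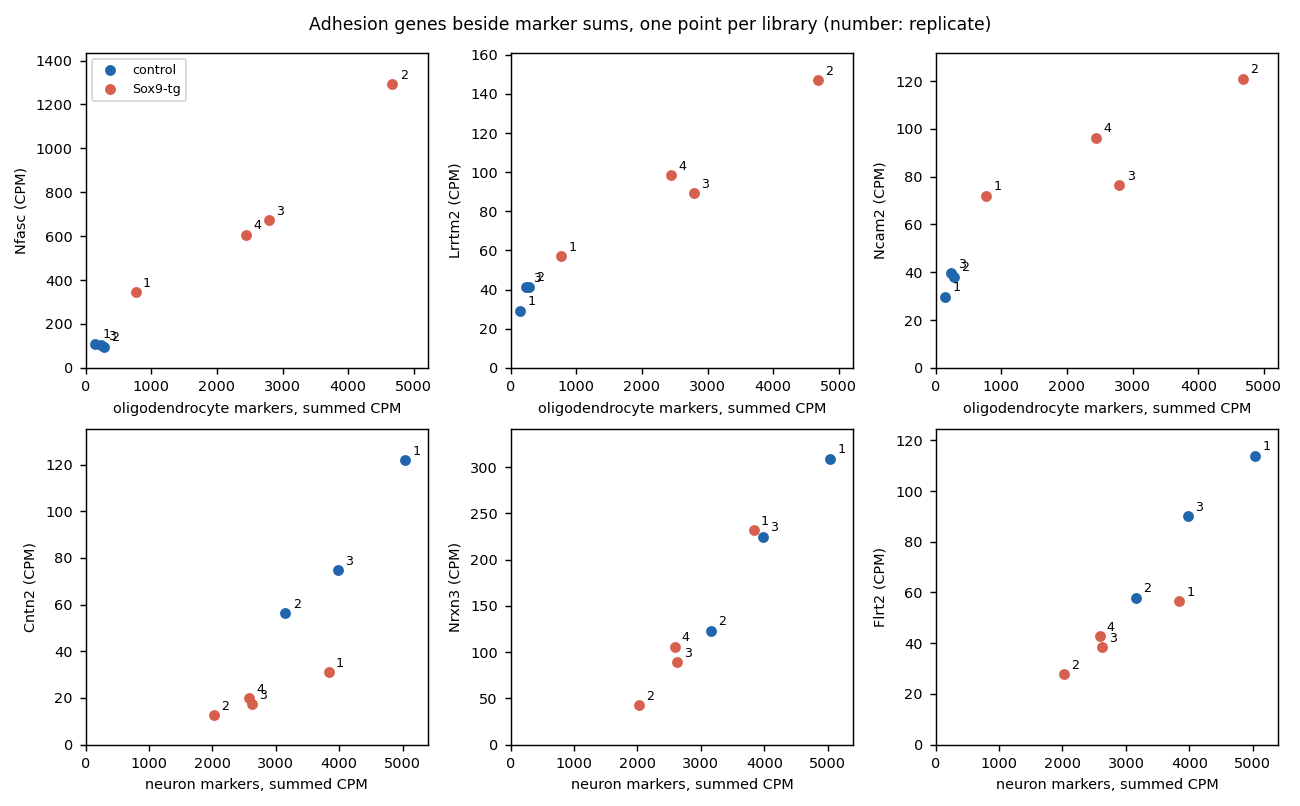
Levels of 6 adhesion genes in CPM (vertical axes) against the summed CPM of 7 oligodendrocyte markers (top row) or 10 neuron markers (bottom row), one point per library, numbered by replicate. Nfasc was at 1293 CPM in Sox9-tg replicate 2, where the oligodendrocyte sum was 4675 CPM, and at 344 CPM in replicate 1, where it was 766 CPM.

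Each of the NCAM and DSCAM pairs held 1 gene that rose and 1 that did not pass. Ncam1, the abundant neural cell adhesion molecule that carries polysialic acid on NG2 glia, was at 813, 596 and 709 CPM in control and at 675, 619, 643 and 584 CPM in Sox9-tg libraries, and the groups overlapped (-0.16, SE 0.15, adjusted p = 0.523). Ncam2 rose from 29.7, 38.1 and 39.5 CPM to 72.1, 121, 76.4 and 96.4 CPM (1.35, SE 0.20, adjusted p = 0.00339), all Sox9-tg libraries lying above the control libraries. Dscam, the Down syndrome cell adhesion molecule that sets the spacing of neurites, rose from 51.9, 56.6 and 63.8 CPM to 146, 224, 179.9 and 174 CPM (1.65, SE 0.16, adjusted p = 0.000542). Its paralogue Dscaml1 was at 179.9, 99.9 and 174 CPM and at 161, 106, 127 and 110.5 CPM, with the groups overlapping (-0.26, SE 0.23, adjusted p = 0.514).

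IgLON proteins are small lipid-anchored immunoglobulin proteins that pair with each other. Opcml rose from 28.6, 51.0 and 36.2 CPM to 126, 220.2, 165 and 145 CPM (2.08, SE 0.25, adjusted p = 0.00131), and its lowest Sox9-tg library held more than 2 times the level of the highest control library. Lsamp, the limbic system-associated member, rose from 99.3, 162 and 129.7 CPM to 202, 336, 264 and 265 CPM (1.03, SE 0.21, adjusted p = 0.0147), a call lost without control replicate 3 (adjusted p = 0.0681). Negr1 rose from 60.9, 47.2 and 58.4 CPM to 104, 77.1, 81.1 and 84.7 CPM (0.65, SE 0.14, adjusted p = 0.019), lost without control replicates 2 (adjusted p = 0.0558) or 3 (0.0731) or Sox9-tg replicate 4 (0.0512). Ntm, or neurotrimin, went the other way without passing, at 43.5, 81.4 and 60.1 CPM in control and 36.4, 43.1, 44.4 and 43.7 CPM in Sox9-tg libraries (-0.56, SE 0.19, adjusted p = 0.0987). It passed without control replicate 1 (adjusted p = 0.0318), the lowest control library, whose level overlapped with the Sox9-tg group.

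At the neurexin-neuroligin pair, the neuroligins changed and the listed neurexins did not pass. All 3 neuroligins, the postsynaptic partners of neurexins, rose by a similar amount. Nlgn1, which sits at excitatory synapses, rose from 25.1, 36.4 and 28.8 CPM to 57.7, 64.2, 58.5 and 64.6 CPM (1.02, SE 0.14, adjusted p = 0.00245). Nlgn2, known from inhibitory synapses, rose from 311, 368 and 346 CPM to 667, 718, 783 and 763 CPM (1.10, SE 0.13, adjusted p = 0.00134). Nlgn3, which oligodendrocyte precursors are known to express and release, rose from 63.6, 76.6 and 65.8 CPM to 170.2, 138, 137 and 137 CPM (1.08, SE 0.13, adjusted p = 0.00119); of its exon bases, 41.2% are shared with the overlapping gene Gm21986 on the same strand, so its reads cannot be fully told apart. None of the 3 calls was lost in any alternative run. Nrxn2 was nearly level at 394, 439.6 and 441 CPM and at 466, 381, 472 and 447 CPM (0.06, SE 0.13, adjusted p = 0.836). Nrxn3 varied widely within both groups and did not pass, at 309, 123 and 225 CPM in control and 232, 42.6, 89.1 and 106 CPM in Sox9-tg libraries (-0.90, SE 0.51, adjusted p = 0.304). Without Sox9-tg replicate 1, its highest library of that group, the log2 fold change of Nrxn3 was -1.47 (adjusted p = 0.0425).

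The neuroligin inhibitors of the MDGA family changed in opposite directions. Mdga1 (ENSMUSG00000043557, GRCm38 chromosome 17, 29827949 to 29970087, minus strand) fell from 54.6, 59.3 and 60.8 CPM to 14.4, 15.6, 13.2 and 14.8 CPM. Both groups were tight, with coefficients of variation of 5.56% and 7.02%, and the fall of 2.00 on the log2 scale (SE 0.11) had the smallest adjusted p of the 49, 0.000118. Of the 10 neuron markers, 3 fell as well and 7 were not called. Rbfox3, which had the largest fall of them, went from 36.4, 46.1 and 42.2 CPM to 16.0, 18.5, 12 and 13.6 CPM. Map2 (-0.06) and Syn1 (0.15) were among those not called. The part of neuron marker levels in the fall of Mdga1 was not tested. Mdga2 rose from 19.7, 34.8 and 24.9 CPM to 75.6, 70.5, 63.0 and 65.4 CPM (1.37, SE 0.19, adjusted p = 0.00237). Per length, the ratio of Mdga2 to Mdga1 lay between 0.187 and 0.305 in control libraries and between 2.3 and 2.72 in Sox9-tg libraries, and the ratio of Nlgn2 to Mdga1 between 9.37 and 10.2 and between 75.5 and 97.7. The latter ratio leaves out Mdga2, which rose. Summed over both MDGA genes, levels were 7.56 ± 0.677 CPM per kilobase of exon in control and 5.27 ± 0.371 in Sox9-tg libraries (mean ± SD).

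**Figure D3:**
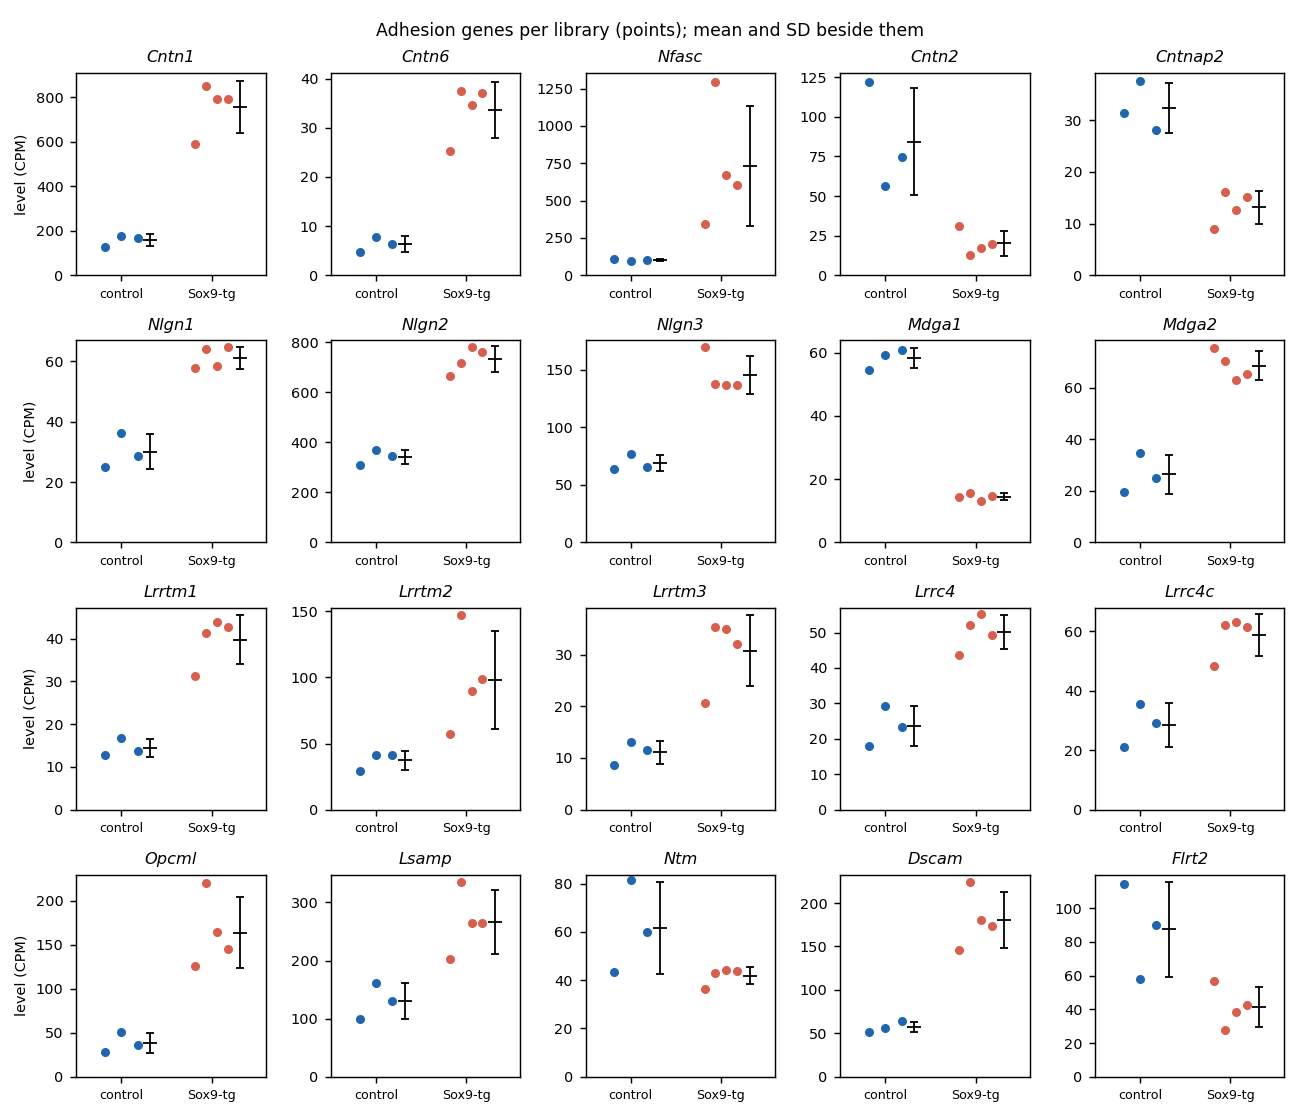
Levels of 20 adhesion genes in CPM (vertical axes, each from 0) in the 3 control and 4 Sox9-tg libraries; points are libraries, and the mean with its SD stands to the right of each group. Mdga1 lay between 13.2 and 15.6 CPM in all Sox9-tg libraries, below the lowest control library at 54.6 CPM, whereas Nfasc spread from 344 to 1293 CPM within the Sox9-tg group.

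The 4 LRRTM genes, postsynaptic leucine-rich repeat proteins that bind neurexins, all rose. Lrrtm1 rose from 12.7, 16.7 and 13.6 CPM to 31.2, 41.4, 43.9 and 42.6 CPM (1.47, SE 0.16, adjusted p = 0.000946). Lrrtm3 rose from 8.7, 13.0 and 11.5 CPM to 20.7, 35.3, 35.0 and 32.1 CPM (1.47, SE 0.22, adjusted p = 0.00368). Both were lowest in replicate 1 of each group, and neither overlapped between groups. Lrrtm2 rose from 29.1, 41.5 and 41.3 CPM to 57.0, 147, 89.4 and 98.6 CPM (1.39, SE 0.29, adjusted p = 0.0158), lost without control replicates 1 (adjusted p = 0.06) or 3 (0.0552). Lrrtm4 rose from 4.93, 5.74 and 5.52 CPM to 8.54, 9.46, 10.2 and 9.94 CPM (0.82, SE 0.17, adjusted p = 0.016). Its call was lost without control replicates 1 (adjusted p = 0.0571) or 3 (0.0693) or Sox9-tg replicates 3 (0.0596) or 4 (0.0611), and 25.1% of its exon bases overlap an antisense gene. Lrrtm1, Lrrtm2 and Lrrtm3 each lie within an alpha-catenin gene on the other strand (Ctnna2, Ctnna1 and Ctnna3), sharing 0, 95 and 0 exon bases with it.

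Of the netrin-G ligands, whose members bind netrin-G proteins or LAR-type phosphatases, 2 of 3 rose. Lrrc4 rose from 18, 29.2 and 23.4 CPM to 43.7, 52.1, 55.2 and 49.4 CPM (1.08, SE 0.17, adjusted p = 0.00436). Lrrc4c rose from 21.0, 35.7 and 29.1 CPM to 48.4, 62.0, 63.3 and 61.5 CPM (1.04, SE 0.19, adjusted p = 0.0079). These genes kept the groups apart, with the lowest level of each group in its replicate 1. Lrrc4b, the most abundant of the 49 per length, was at 349, 372 and 367 CPM and at 439, 339, 521 and 487 CPM, where Sox9-tg replicate 2 fell below the control libraries (0.30, SE 0.16, adjusted p = 0.277).

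SLITRK proteins, leucine-rich repeat proteins that bind LAR-type phosphatases, had positive log2 fold changes in all 6 genes, and 4 rose. Slitrk2 rose from 67.1, 91.8 and 73.3 CPM to 139, 134, 136 and 143 CPM (0.83, SE 0.13, adjusted p = 0.00371). Slitrk5 rose from 25.8, 35.6 and 27.6 CPM to 50.2, 54.4, 64.2 and 63.7 CPM (0.97, SE 0.15, adjusted p = 0.0043), and the scarcer Slitrk4 from 4.87, 5.22 and 5.39 CPM to 11.1, 11, 10.4 and 10.7 CPM (1.06, SE 0.16, adjusted p = 0.00363). Levels of Slitrk2 and Slitrk4 were close to even within the Sox9-tg group, with coefficients of variation of 2.86% and 2.95%. Slitrk1 rose from 21.8, 21.1 and 21.3 CPM to 33.2, 26.6, 35.9 and 35.6 CPM (0.62, SE 0.13, adjusted p = 0.0163). That call was lost without control replicates 1 (adjusted p = 0.0625), 2 (0.0515) or 3 (0.0902) or Sox9-tg replicates 3 (0.0601) or 4 (0.0615). Slitrk3, at 32.1, 22.8 and 36.7 CPM and at 57.0, 35.6, 53.6 and 46.1 CPM, overlapped between groups (0.66, SE 0.21, adjusted p = 0.0724). Slitrk6, under 6 CPM in every library, had a log2 fold change of 1.78 (SE 0.53, adjusted p = 0.0586). Slitrk3 passed without Sox9-tg replicate 2 (adjusted p = 0.0282), without both libraries numbered 2 (0.0337) and with DESeq2 (0.0287), and Slitrk6 without control replicate 2 (0.03), without Sox9-tg replicate 1 (0.0188) and with DESeq2 (0.0083).

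FLRT proteins bind latrophilins and UNC5 receptors, and their genes moved apart. Flrt2 fell from 114, 58.0 and 90.0 CPM to 56.5, 27.7, 38.4 and 42.8 CPM (-1.08, SE 0.27, adjusted p = 0.0306). The gap between the groups was narrow, with control replicate 2 just above Sox9-tg replicate 1, and the call was lost without control replicates 1 (adjusted p = 0.127) or 3 (0.109) or Sox9-tg replicates 3 (0.0913) or 4 (0.0767). Flrt3 rose from 24.9, 20.5 and 22.3 CPM to 28.7, 28.9, 36.5 and 36.9 CPM (0.54, SE 0.14, adjusted p = 0.0369). The call ended when control replicate 1 (adjusted p = 0.0722), 2 (0.118) or 3 (0.159) or Sox9-tg replicate 3 (0.116) or 4 (0.121) was left out, without both libraries numbered 2 (0.0778) and with unscaled total counts (0.0502). Flrt1 lay between 13.8 and 22.8 CPM in all libraries and did not pass.

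None of the 3 LAR-type receptor phosphatases, the presynaptic partners of SLITRK proteins and a netrin-G ligand, passed the test. Ptprs, a receptor for chondroitin sulphate, was at 1646, 1309 and 1581 CPM in control and 1236, 861, 991 and 973 CPM in Sox9-tg libraries. It was the only gene of the 49 whose groups did not overlap without a call (-0.57, SE 0.17, adjusted p = 0.0557), and it passed with DESeq2 (adjusted p = 0.00478), limma-voom (0.0444), upper-quartile factors (0.0396), unscaled total counts (0.0419) and without Sox9-tg replicate 1 (0.0164). Ptprf was at 232, 253 and 198 CPM and at 202, 262, 219.8 and 260.1 CPM (0.05, SE 0.14, adjusted p = 0.863), and Ptprd lay between 55.2 and 92.1 CPM in all libraries. Il1rapl1, a ligand of PTPRD linked to intellectual disability, rose from 1.86, 3.67 and 4.0 CPM to 10.7, 11.7, 6.24 and 7.75 CPM (1.5, SE 0.34, adjusted p = 0.0191), lost with both libraries numbered 2 left out (adjusted p = 0.0521). Lingo1, a negative regulator of oligodendrocyte differentiation, was at 36.9, 53.5 and 40.7 CPM and at 32.6, 36.1, 44.6 and 44.8 CPM and did not pass (-0.15, SE 0.17, adjusted p = 0.637).

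To compare genes with each other, levels were divided by exon length (RPKM, CPM per kilobase of exon). Summed over the 49 genes, they came to 656 ± 15.2 RPKM in control (SD, n = 3) and 904 ± 36.7 RPKM in Sox9-tg libraries (SD, n = 4). The control order was led by Lrrc4b at 124 ± 4.15, Ptprs at 101 ± 11.9, Ncam1 at 81.5 ± 12.5 and Nlgn2 at 59.1 ± 5.01 RPKM. The libraries' ranges of Ptprs and Ncam1 overlapped. In Sox9-tg libraries Lrrc4b at 152 ± 27.1 and Nlgn2 at 127 ± 8.94 RPKM came first and differed by less than the spread of Lrrc4b. Cntn1, ninth in control at 16.7 ± 2.73 RPKM, came next at 80.2 ± 12.2 RPKM, with a range that overlapped those of Ncam1 at 72.7 ± 4.45 and Ptprs at 67.7 ± 10.5 RPKM. Nfasc was in place 20 in control and place 6 in Sox9-tg libraries, at 7.28 ± 0.466 and 51.5 ± 28.4 RPKM. The means of Cntn3, Cntn4, Cntn5, Cntnap1, Slitrk6 and Il1rapl1 were under 1 RPKM in both groups.

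Several families changed in make-up rather than in amount alone. Cntn1 made up 60.3 ± 10.8% of the summed contactin level per length in control and 89.7 ± 1.52% in Sox9-tg libraries, and Cntn2 made up 32.6 ± 12.5% and 2.58 ± 1.45%. In the L1 family the share of Nfasc was 21.4 ± 1.06% and 61.5 ± 12.4%, while that of Nrcam was 30.4 ± 0.809% and 10.1 ± 3.07%. Neurofascin messages thus went from a near-even share with the other L1 genes to the largest share in every Sox9-tg library. Mdga1 made up 81.1 ± 3.97% of the MDGA sum in control and 29 ± 1.56% in Sox9-tg libraries, and Dscam 28.7 ± 7.04% and 59.1 ± 8.39% of the DSCAM sum. Within the IgLON family the share of Opcml was 11.3 ± 1.25% and 27.8 ± 3.24%, and that of Ntm 32.5 ± 4.09% and 13 ± 1.21%. For each of these 8 genes the shares of the groups did not overlap. Neuroligins kept their make-up while their sum rose from 68.8 ± 6.1 to 147 ± 7.52 RPKM: Nlgn2 held 86 ± 0.667% and 86.1 ± 1.79%. Shares are descriptions of levels already tested gene by gene and were given no test of their own.

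**Figure D4:**
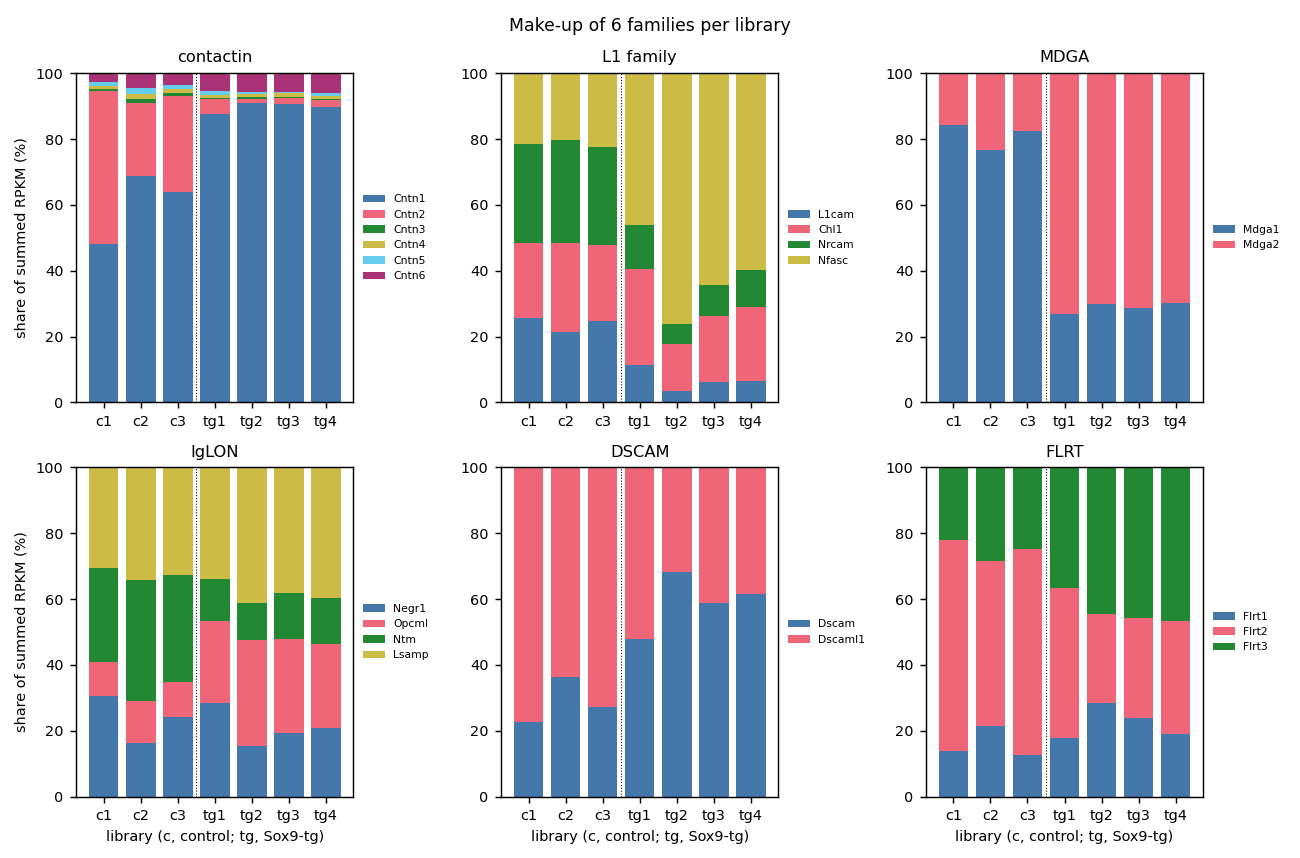
Share of each gene in the summed RPKM of its family (vertical axis, percent) in 6 families, one bar per library (c1 to c3, control; tg1 to tg4, Sox9-tg; the dotted line divides the groups). Mdga1 held 76.6% or more of the MDGA bar in control and at most 30.3% in Sox9-tg libraries, and Nfasc between 46.1% and 76.1% of the L1 bar in Sox9-tg libraries.

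Some of these genes are neighbours on a chromosome (GRCm38). Nfasc and Cntn2, on the minus strand of chromosome 1 at 132564690 to 132741797 and 132509427 to 132543256, lie 21.4 kb apart with no tested gene between them, and Nfasc rose while Cntn2 fell. Opcml and Ntm lie 69.3 kb apart on chromosome 9 on opposite strands, at 27790775 to 28925410 and 28994750 to 29963141, and Opcml rose while Ntm did not pass. Chl1, Cntn6 and Cntn4 follow each other on the plus strand of chromosome 6 (103510586 to 103750211, 104492790 to 104863406 and 105677660 to 106699310). All 3 of these rose, and the 1 other gene tested in the gaps between them, the predicted gene Gm15631, was not called. Cntn3, upstream of Chl1 on the minus strand, was not called.

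Neural adhesion genes are often very long. The median span from first to last exon was 178 kb for the 49 genes and 20.6 kb for 16569 tested genes with a coordinate. Of the 15 genes over 500 kb among the 49, 10 rose and 1 fell (Cntnap2), and their median log2 fold change was 1.02. Of the 34 shorter ones 16 rose and 6 fell, and the median was 0.58. Over all genes tested, 214 spanned more than 500 kb, of which 57 (26.6%) rose and 19 (8.88%) fell, with a median of 0.25. Of the 16355 shorter genes tested, 1220 rose and 953 fell, with a median of -0.01. Across the 49 genes the rank correlation of span with log2 fold change was -0.03, and across all tested genes it was 0.11; these are descriptions over genes that share the same 7 libraries.

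Partner genes were taken from 4 lists chosen by function, with earlier results of these data known, so their shares are descriptions. Among 10 tested further members of the same families, 4 rose and 1 fell (median log2 fold change 0.17). These were Il1rap (1.19, adjusted p = 0.00101), a ligand of LAR-type phosphatases and interleukin co-receptor, Lingo3 (1.42, 0.00468), Cntnap5b (1.00, 0.00882) and Lingo2 (1.08, 0.0304), with Cntnap5c falling at very low counts (1.25 ± 0.191 to 0.21 ± 0.109 CPM). Of 25 other synaptic adhesion genes, 9 rose and 3 fell (median 0.41), so 48.0% were called beside 13.5% of all genes. The smallest p-values among the rises were those of Igsf9b (2.90, SE 0.36), an adhesion protein of inhibitory synapses, Cadm1 (1.10, SE 0.14), a SynCAM, the latrophilin gene Adgrl3 (0.92, SE 0.12), a receptor for FLRT proteins, and Igsf21 (1.08, SE 0.16), a ligand of neurexin-2. Igsf9b stood at 28.4, 45.8 and 38.5 CPM in control and at 239, 475, 231 and 179 CPM in Sox9-tg libraries. Ntng1, which encodes netrin-G1, the ligand of Lrrc4c, fell (-1.27, SE 0.20), as did Igsf9 (-1.03) and Lrfn2 (-0.97). Calls of Cntnap5b (adjusted p = 0.0563 without control replicate 3), Lingo2, Igsf9 and Lrfn2 were lost when single libraries were left out, up to adjusted p = 0.0857, 0.105 and 0.144 for the last 3, without Sox9-tg replicate 3, control replicate 1 and control replicate 3 respectively.

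Among 21 secreted or cleaved partners, 9 rose and 4 fell (median 0.54), so 61.9% were called beside 13.5% of all genes. Adam23, a receptor of LGI proteins, had the smallest p (2.07, SE 0.15, adjusted p = 0.000181), from 26.6, 31.7 and 34.3 CPM to 127, 156, 119.7 and 116 CPM. C1ql1, a complement-like synapse organiser known as a product of NG2 glia, rose from 29.1, 51.4 and 36.9 CPM to 86.4, 118, 139 and 134 CPM (1.61, SE 0.23, adjusted p = 0.00283), and Gpc6 (0.94, 0.00478) and Adam11 (1.59, 0.00727) rose too. The falls were those of Mdk, the growth factor midkine (-0.80), Cbln4, a cerebellin (-2.14), Lgi1 (-1.37) and Reln, which encodes reelin (-1.06) and whose groups overlapped. These 4 calls were lost without control replicate 1 (adjusted p = 0.0571, 0.0591, 0.0598 and 0.112), and all but that of Cbln4 without another library as well, at most 0.0612 for Mdk and 0.0689 for Lgi1 without control replicate 3 and 0.134 for Reln without control replicate 2. Reln also did not pass with limma-voom (adjusted p = 0.0733), with upper-quartile factors (0.0557) or with a filter of at least 1 CPM in 3 libraries (0.0502). Of 22 tested cytoplasmic scaffold genes, 4 rose and 1 fell (median 0.08), so 22.7% were called beside 13.5% of all genes. Cask, which binds neurexin tails, rose from 128, 111 and 136 CPM to 222, 263, 226 and 216 CPM (0.89, SE 0.13, adjusted p = 0.00282). Smaller changes were those of Homer1 (0.50), Gphn, or gephyrin (0.38), and Ppfia2 (-0.72), a liprin that binds LAR-type phosphatases. These 3 calls were lost when control replicate 1 (adjusted p = 0.0652, 0.14 and 0.117) or control replicate 3 (0.0839, 0.146 and 0.0792) was left out, and those of Gphn and Ppfia2 also without any of control replicate 2 and Sox9-tg replicates 2, 3 and 4. Gphn also did not pass with limma-voom (adjusted p = 0.0514), with upper-quartile factors (0.0536), with unscaled total counts (0.0698) or without the filter on low counts (0.0984). Across the 4 lists, 35 of 78 tested genes (44.9%) were called, 26 higher and 9 lower. That count fell to 15 and 16 without control replicates 1 and 3, and to 19 without Sox9-tg replicate 3 or 4.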

How the data were processed

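Total RNA of the 7 libraries was sequenced. The authors deposited raw counts per gene for each library, as whole numbers with an Ensembl ID and a gene name. The tools named, per the submitters' processing notes, were STAR 2.5.2b, Trimmomatic 0.36, DESeq, DESeq2 and Subread 1.5.2 with featureCounts, on GRCm38. Settings, annotation release and strandedness of the counting were not given in the sources used here, so reads of overlapping or antisense genes cannot be told apart.

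Genes were kept by edgeR's filterByExpr (minimum count 10, minimum total count 15), scaled by TMM (factors 0.965 to 1.05) and tested with edgeR 4.0.16 in R 4.3.3 by the quasi-likelihood F test, two-sided, with group as the only term and Benjamini-Hochberg adjustment over 16616 genes. A standard error is the log2 fold change divided by the square root of F. CPM used the scaled library totals, and 3 counts in a library were worth 0.0969 to 0.193 CPM. RPKM divided CPM by the exon length of all GENCODE M21 transcripts of a gene (GRCm38). The steps were tested on simulated counts.

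The adhesion genes, the partner lists and the markers were chosen with earlier results of these data known. Values per library were given for genes called with at least 5 CPM in a group and for the leading gene of each family, and up to 4 called partner genes per list and direction were named by smallest p. Results of some listed partner and marker genes are not reported here. Dlg2 and Magi1 stood on 2 rows each and were not used. Alternatives were DESeq2 1.42.0, limma-voom (limma 3.58.1), upper-quartile and no scaling factors, other filters, a replicate block and leaving out libraries.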

Additional observations from a re-analysis of the deposited data

Results flagged for a closer look

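Within the 4 Sox9-tg libraries, 1 library stood apart from the others by Dixon's test in 4 of the 49 adhesion genes. Chance alone flags about 1 in 20 such groups. Nlgn3 was at 170.2 CPM in Sox9-tg replicate 1 and between 137 and 138 CPM in the others. Lrrc4c was at 48.4 CPM in Sox9-tg replicate 1, against 61.5 to 63.3 CPM, and Ntm was at 36.4 CPM there, against 43.1 to 44.4 CPM. Cntn3 was at 3.49 CPM in Sox9-tg replicate 2, against 1.52 to 1.8 CPM.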

How the results depend on the processing

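Of the 33 adhesion genes called, 21 kept their call and direction in all 15 alternatives, 12 lost the call in at least 1 and none changed direction. Of the 16 not called, 5 passed in at least 1 alternative, and 3 with log2 fold changes near 0 changed sign. Cntnap1 was at -0.0029 with DESeq2, -0.02 with limma-voom, -0.05 with upper-quartile factors, -0.06 with unscaled total counts, -0.0052 with at least 1 CPM in 3 libraries and between -0.27 and 0.39 with single libraries left out. Ptprf was at -0.0026 with unscaled total counts and between -0.04 and 0.14 with single libraries left out. Lingo1 was at 0.09 with both libraries numbered 2 left out and between -0.24 and 0.03 with single ones left out. The cause was not tested. With 1 library left out, the number of all genes called lay between 965 and 3169, of adhesion genes called between 22 and 36, of those that rose between 19 and 27, of those that fell between 3 and 9, and of partner genes called between 15 and 41, from fits on fewer samples. With DESeq2, 3048 genes and 36 adhesion genes were called.

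Whether the replicate numbers pair the libraries was not settled. Same-numbered deviations from the group means correlated at 0.32, 0.61 and 0.07 for numbers 1 to 3. Libraries 1 and 2 of each group correlated best with their own number, and library 3 did not. Sox9-tg replicate 4 had no control of its number, and the main fit held no pairing. With the replicate block, 3109 genes and 38 adhesion genes were called, the 33 of the unblocked fit among them, with Nrxn3, Ntm, Slitrk3, Slitrk6 and Ptprs added. Partner calls numbered 37 with the block. In the main fit, Cntn3, Cntn5, Cntnap1 and Slitrk6, all under 6 CPM, did not pass. Cntn4, Cntnap4, Lrrtm4 and Il1rapl1 passed there at mean levels under 10 CPM in both groups. The part of depth was not tested.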
